A study of Mus musculus with 4 samples.

Results

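Crypt stem and progenitor cells of control small intestine were defined as the cells of the 2 control libraries that carried counts of crypt genes and few counts of villus or goblet genes. Cells were kept from 1000 counts and 300 detected genes upward, provided that mitochondrially encoded genes took no more than 30% of the counts. A kept cell was gated when it had at least 2 summed counts over the crypt genes Lgr5, Smoc2, Axin2, Slc12a2, Igfbp4, Myb and Cps1. It also had to hold under 2 counts over the villus tip genes Ada, Slc28a2, Enpp3, Cybrd1 and Tmprss15, under 3 over the mid-villus genes Lct, Pck1, Cyp3a25, Leap2 and Cyp2b10, and under 4 over the goblet genes Muc2, Fcgbp, Clca1 and Spink4. The gate took 259 of 1289 kept control cells, which were 144 of 774 cells in control 1 (18.6%, exact 95% interval 15.9 to 21.5%) and 115 of 515 in control 2 (22.3%, 18.8 to 26.2%). The other 630 and 400 kept control cells are the cells that the gated ones are set against. Because measured counts chose the cells, every comparison of gated with other control cells is a description and carries no test.

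The study profiled single epithelial cells of the small intestine of adult C57BL/6J mice. Lats-deleted mice (2 libraries) carried Lrig1-CreERT2 with Lats1fl/fl Lats2fl/fl, so that recombination starts in cells that use the Lrig1 promoter, and control mice (2 libraries) carried Lats1fl/fl Lats2fl/fl alone. Tamoxifen (2 mg, given intraperitoneally) went to Lats-deleted and control mice alike, and tissue was taken on day 7. Cells were sorted as EpCAM+ CD45- TER119- DAPI-, 5000 per condition, and captured in droplets with inDrop v2. The labels do not say whether the libraries of a group came from separate mice, so p-values measure only the spread between these libraries. The deposited tables held 4995 and 16791 barcodes in the Lats-deleted libraries and 4398 and 3947 in the control libraries, of which 726 and 1289 Lats-deleted and 774 and 515 control barcodes were kept. Gated control cells had a median of 1977 and 2536 counts, against 1626 and 1920.5 in the other control cells, and median mitochondrial shares of 7.62 and 6.20%, against 10.1 and 7.08%. The control libraries shared 4 kept barcodes, none of them gated. Levels are given in CPM, the usual scaling of a gene's summed counts by the total counts of a class of cells in a library, with control 1 before control 2. The exact intervals of shares and count ratios, and the limits from counts of 0, cover counting error only.

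Stem cells at the base of intestinal crypts divide throughout life and are marked by Lgr5, a receptor for R-spondins that strengthens Wnt signalling. Their daughters divide rapidly as progenitors in the upper crypt, where Notch signalling favours the absorptive fate and Delta ligands and Atoh1 the secretory fate. Cells then leave the cycle and move up the villus as enterocytes, goblet cells and other types. Dividing progenitors are known for high production of ribosomes and nucleotides, and enterocytes for lipid carriers and digestive enzymes of the brush border.

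Nearly all gated control cells carried a count of Cps1. Cps1, the mitochondrial carbamoyl phosphate synthetase of the urea cycle (ENSMUSG00000025991.8, chr1:67123026-67231259 in GENCODE M21, GRCm38), had a count in 96.5 and 100.0% of gated cells and made up 75.7 and 72.1% of their crypt-gene counts. It was the only crypt gene counted in 80 and 68 cells, or 55.6 and 59.1% of the gated cells. The chloride cotransporter gene Slc12a2 had a count in 29.2 and 31.3% of gated cells, and Myb, a transcription factor of progenitors, in 12.5 and 11.3%. Smoc2, a matricellular protein of the crypt base, was counted in 11.1 and 9.57%, the growth factor binding protein gene Igfbp4 in 8.33 and 7.83% and Axin2, a feedback target of Wnt signalling, in 3.47 and 6.96%.

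Lgr5 itself (ENSMUSG00000020140.15, chr10:115450311-115587780) was counted in 14 and 6 gated cells, 9.72 and 5.22%. With each cell thinned to 1000 counts, Lgr5 was counted in 8.33 and 3.48% of gated cells, 1.43 and 0.750% of other control cells and in none of the 59 and 42 cells that the goblet limit removed, where a count of 0 allows up to 5.08% and 7.14% of cells with a count at this depth, which does not bound the share that express the gene. Cps1 was counted in 84.0 and 80.9% of gated cells after thinning, 20.6 and 20.5% of other control cells and 16.9 and 0% of the cells removed by the goblet limit. Thinned Slc12a2 was counted in 22.2 and 21.7% of gated cells and 11.9 and 4.76% of the cells over the goblet limit. For Smoc2 these shares were 4.17 and 6.09%, and 0 and 7.14%, so that control 2 went the other way. Shares of Myb, Axin2 and Igfbp4 were higher in gated cells in both libraries. All 5 genes given as markers of this class (Lgr5, Smoc2, Slc12a2, Cps1 and Myb) are gate genes, so they cannot check the name. The class was therefore read through genes that the gate did not use, and it is called the gated cells here.

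**Figure D1:**
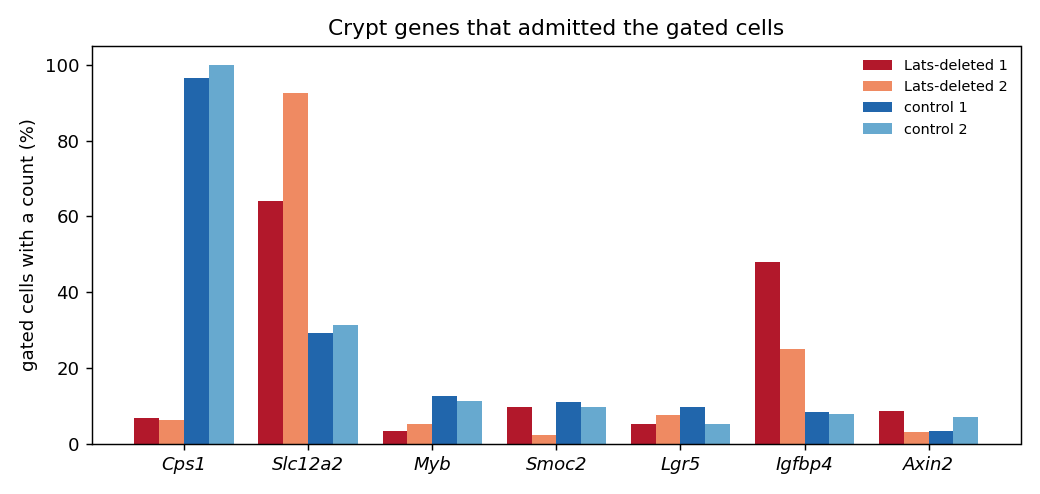
Share of gated cells with at least 1 count of each crypt gene, in percent, for the 2 Lats-deleted and the 2 control libraries (1 bar per library, no error bars). Cps1 stands at 6.73 and 6.14% in the Lats-deleted libraries, where Slc12a2 reaches 63.9 and 92.5%, and at 96.5 and 100.0% in the control libraries.

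Among 6870 genes outside the gate with at least 20 CPM in gated or other control cells, 637 were at least 2-fold higher in gated cells in both libraries (9.27%) and 391 at least 2-fold lower (5.69%), with a pseudocount of 5 CPM. The median log2 ratio of all tested genes was 0.14. This split depends on the scaling: with totals scaled by the trimmed mean of M values, which shifts log2 ratios down by 0.360 and 0.283 before the pseudocount, 381 of the same 6870 genes were higher and 641 lower, and their median became -0.14. With the 20 CPM level also applied to scaled values, 363 were higher and 661 lower. The share of higher genes among those past the fold was 62.0% with plain totals and 35.4% with scaled totals and the scaled level. Across genes, which are not independent replicates, the log2 CPM of gated cells correlated between the libraries with r = 0.915 (n = 6891 genes).

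S-phase genes had the highest median ratio of the lists outside the gate. Of 28 listed S-phase genes, 23 reached the level filter, and 17 of these were at least 2-fold higher and none lower, with a median log2 ratio of 1.93; 15 stayed past the fold with scaled totals. Mcm6, a subunit of the replicative helicase, had 88.0 and 93.1 CPM in gated cells, against 16.5 and 11.996 CPM in other control cells. Mcm3, another helicase subunit (ENSMUSG00000041859.10, chr1:20802968-20820312), had 30.4 and 48.2 CPM in gated cells, against 0.785 and 1.09 CPM in other control cells, resting on 10 and 15 counts in gated cells. Both genes were past the fold. Pcna, the sliding clamp of the replication fork, had 258 and 250.4 CPM in gated cells, against 81.6 and 122 CPM in other control cells. Mcm2 did not follow the other helicase subunits and had 176 and 186 CPM in gated cells, against 179 and 230.1 CPM in other control cells. Summed over the list, S-phase genes reached 1421 and 1502 CPM in gated cells, against 553 and 640.1 CPM in other control cells.

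Promoter windows of 3 helicase genes are shown because Mcm3 and Mcm6 lay higher in gated cells, as did Mcm4, Mcm5 and Mcm7, and Mcm2 did not. They run from 250 bases before to 50 bases after the start of the gene, come from RefSeq (GRCm38.p6) and are printed 5′ to 3′ on the strand of the gene. Capitals mark the E2F motif letters TTTCCCGC or TTTGGCGC on either strand. E2F factors are known regulators of S-phase genes, and the motifs searched do not overlap each other in these windows. The Mcm3 window is chr1:20820263-20820562 (minus strand), the Mcm6 window chr1:128359656-128359955 (minus strand) and the Mcm2 window chr6:88898731-88899030 (minus strand).
Mcm3: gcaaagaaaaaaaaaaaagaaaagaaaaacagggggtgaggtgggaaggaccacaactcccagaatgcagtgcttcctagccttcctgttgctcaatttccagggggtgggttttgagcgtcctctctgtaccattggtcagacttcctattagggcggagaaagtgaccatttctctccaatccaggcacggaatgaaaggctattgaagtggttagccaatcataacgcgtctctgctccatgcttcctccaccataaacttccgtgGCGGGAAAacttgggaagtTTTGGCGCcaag
Mcm6: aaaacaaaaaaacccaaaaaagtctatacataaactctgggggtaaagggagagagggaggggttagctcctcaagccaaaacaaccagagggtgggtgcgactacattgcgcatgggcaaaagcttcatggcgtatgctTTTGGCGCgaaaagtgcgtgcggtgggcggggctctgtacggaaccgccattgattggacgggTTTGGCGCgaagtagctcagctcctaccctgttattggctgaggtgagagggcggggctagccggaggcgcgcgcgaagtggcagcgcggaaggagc
Mcm2: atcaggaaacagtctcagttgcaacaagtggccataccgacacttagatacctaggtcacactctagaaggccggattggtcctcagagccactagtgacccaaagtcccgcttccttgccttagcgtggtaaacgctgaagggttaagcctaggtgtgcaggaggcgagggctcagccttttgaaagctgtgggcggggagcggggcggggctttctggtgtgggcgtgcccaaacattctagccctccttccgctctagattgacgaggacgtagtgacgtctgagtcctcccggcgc
The letters occurred 2 times each in the Mcm3 and Mcm6 windows and were not in the Mcm2 window. They were also not in the windows of Pcna and Top2a, which lay higher in gated cells. Of 23 S-phase genes with a window, 7 held the letters, so these 3 windows do not stand for the list. They were in 7 of 30 windows of S-phase genes (23.3%), in 3 of 21 windows of ribosome biogenesis genes (14.3%), in 3 of 33 windows of crypt base genes (9.09%), in 0 of 22 windows of G2/M genes and in 514 of 32851 windows of all genes (1.56%). The 7 windows belonged to Cdc6, Dnmt1, Hells, Mcm3, Mcm5, Mcm6 and Mcm7. A match describes the letters of the window and is not a measured binding site.

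Mitotic genes followed the same direction. Of 28 listed G2/M genes, 20 reached the filter, 13 were at least 2-fold higher and none lower, with a median log2 ratio of 1.51 and 11 past the fold with scaled totals. Hmgb2, a chromatin protein of dividing cells, had 325 and 331 CPM in gated cells, against 51.0 and 48.0 CPM in other control cells. Top2a, the topoisomerase that untangles replicated chromosomes, had 118 and 128 CPM in gated cells, against 24.3 and 26.2 CPM in other control cells. Both genes lay apart by log2 ratios of 2.56 and 2.66 (Hmgb2) and 2.07 and 2.10 (Top2a). Stmn1, which destabilises microtubules, and Pbk, a mitotic kinase, were among the 15 genes with the largest ratios in the library nearer to 0. Stmn1 had 206 and 164 CPM in gated cells, against 18.8 and 19.6 CPM in other control cells, and Pbk had 48.6 and 38.5 CPM in gated cells, against 3.92 and 1.09 CPM in other control cells. Ccnb1, the mitotic cyclin gene, had 18.2 and 28.9 CPM in gated cells, against 10.2 and 11.996 CPM in other control cells. With the pseudocount of 5 CPM, Ccnb1 passed the fold in neither library.

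Not every gated cell carried the cycling signature. With each cell thinned to 1000 counts, 47.9 and 50.4% of gated cells had 2 or more counts over the S-phase and G2/M lists, against 18.3 and 21.2% of other control cells. Unthinned, 73 and 66 gated cells had 3 or more such counts (50.7 and 57.4%). Enterocyte genes summed to 8649 and 9655 CPM in these cells, against 21826 and 27183 CPM in the gated cells with fewer.

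Replication-dependent histones led the list of single genes. Hist1h2ao had 194 and 260.0 CPM in gated cells, against 20.4 and 16.4 CPM in other control cells. Hist1h2ai had 249 and 179.8 CPM in gated cells, against 27.5 and 9.81 CPM in other control cells, and Hist1h2ap had 273 and 324 CPM in gated cells, against 34.5 and 19.6 CPM in other control cells. Histone genes have near-identical copies, among which the counting could split reads, so the level of each copy is uncertain. Of 8 histone genes that reached the filter, these 3 were past the fold and none was lower. Hist1h2bc, whose levels were 97.1 and 96.3 CPM in gated cells, against 172 and 144 CPM in other control cells, did not pass it.

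Genes for making ribosomes and nucleotides were higher as a group. In ribosome biogenesis, 14 of 24 genes were at least 2-fold higher and none lower, with a median log2 ratio of 1.74, and 14 passed with scaled totals too. Npm1, the nucleolar chaperone nucleophosmin, had 680.0 and 751 CPM in gated cells, against 132 and 92.7 CPM in other control cells. Ncl, the nucleolar protein nucleolin, had 495 and 501 CPM in gated cells, against 118 and 109 CPM in other control cells. Nhp2, a protein of the small RNPs that guide pseudouridylation, had 134 and 144 CPM in gated cells, against 19.6 and 18.5 CPM in other control cells. Each of these genes was past the fold, and the 2 libraries of a class lay close together.

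Ribosomal protein genes filled 15.4% and 15.017% of all counts of gated cells, against 5.14% and 5.12% in other control cells. Of 82 tested, 79 were at least 2-fold higher and none lower (66 with scaled totals). Rps18 had 3764 and 3891 CPM in gated cells, against 1113 and 1062 CPM in other control cells. Against the 171 and 120 control cells that failed the crypt criterion alone, a comparison chosen after seeing the data, 390 of 6870 genes were at least 2-fold higher (5.68%) and 185 at least 2-fold lower (2.69%), and 16 of the 82 ribosomal protein genes were higher. Among translation factors, 11 of 17 passed the fold against all other control cells and 1 of 17 against those cells. Eef1a1, the elongation factor that delivers tRNA, had 6597 and 5839 CPM in gated cells, against 2878 and 2478 CPM in other control cells, and 4444 and 3638 CPM in the cells that failed the crypt criterion alone.

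Of 18 genes of nucleotide, one-carbon and polyamine synthesis, 11 were at least 2-fold higher and none lower. Impdh2, the rate-limiting enzyme of guanine nucleotide synthesis, had 158 and 161 CPM in gated cells, against 15.7 and 19.6 CPM in other control cells. Gart, an enzyme of purine synthesis, had 88.0 and 57.8 CPM in gated cells, against 8.63 and 10.9 CPM in other control cells. Odc1, which starts polyamine synthesis, did not pass, with 158 and 135 CPM in gated cells, against 135 and 121 CPM in other control cells. The median log2 ratio of the list was 1.61. Single genes of wider use that ranked with these were Ptma, Mif and Ranbp1. Prothymosin gene Ptma had 2292 and 2379 CPM in gated cells, against 366 and 330.4 CPM in other control cells, with log2 ratios of 2.63 and 2.83. Ranbp1, a cofactor of nuclear transport, had 191 and 179.8 CPM in gated cells, against 30.6 and 21.8 CPM in other control cells. Csrp2, which encodes a LIM domain protein, had 158 and 119 CPM in gated cells, against 21.2 and 11.996 CPM in other control cells, and the cytokine gene Mif had 243 and 292 CPM in gated cells, against 36.9 and 42.5 CPM in other control cells.

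**Figure D2:**
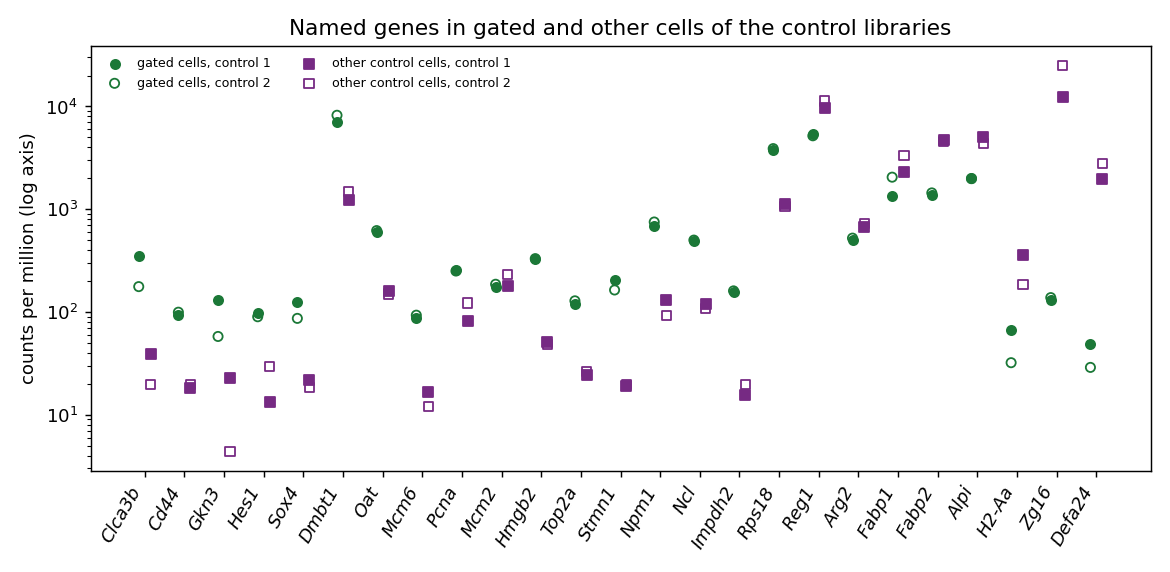
CPM (log axis) of 25 named genes, with 1 point per library for gated cells (circles) and other control cells (squares); filled symbols are control 1, open symbols control 2. Cell-cycle, nucleolar and crypt genes lie higher in gated cells, Mcm2 does not, and enterocyte, goblet, Paneth and MHC class II genes lie lower.

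Crypt base genes outside the gate were higher in part. Of 32 listed genes, 17 reached the filter, 6 were at least 2-fold higher (Clca3b, Cd44, Gkn3, Kcnq1, Cdk6 and Cdca7) and none lower, with a median log2 ratio of 0.91; 5 passed with scaled totals. Clca3b (ENSMUSG00000037033.9, chr3:144822623-144849357), a calcium-activated chloride channel regulator family member, had 349 and 177 CPM in gated cells, against 39.2 and 19.6 CPM in other control cells. Cd44, a hyaluronan receptor and Wnt target, had 94.1 and 99.5 CPM in gated cells, against 18.0 and 19.6 CPM in other control cells. Gkn3, a gastrokine of the mouse crypt base, had 131 and 57.8 CPM in gated cells, against 22.8 and 4.36 CPM in other control cells. Each gene lay higher in gated cells in both libraries, although Clca3b and Gkn3 were over 1.5 times apart between the libraries of a class.

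Classical stem cell markers rested on few counts. Olfm4 had 3 and 6 counts in all gated cells and Ascl2, a transcription factor of Lgr5+ cells, 2 and 8 counts, both below the level filter. Lrig1, the feedback regulator of ErbB receptors whose promoter drives Cre in this study, had 21.3 and 28.9 CPM in gated cells, against 13.3 and 11.996 CPM in other control cells. With the pseudocount of 5 CPM, Lrig1 passed the fold in neither library. Prom1 had 24.3 and 28.9 CPM in gated cells, against 11.8 and 18.5 CPM in other control cells, and Hopx, a homeobox gene linked to reserve stem cells, had 82.0 and 83.5 CPM in gated cells, against 112 and 123 CPM in other control cells. None of these 3 genes passed the fold.

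Wnt and Notch genes gave mixed patterns. Of 9 tested Wnt targets, 2 were at least 2-fold higher, Ccnd1 and Cd44, and 1 was lower, Sp5, with a median log2 ratio of 0.60. Against the cells that failed the crypt criterion alone 1 was higher and none lower. Cyclin gene Ccnd1 had 115 and 161 CPM in gated cells, against 30.6 and 22.9 CPM in other control cells. Myc had 66.8 and 9.63 CPM in gated cells, against 14.1 and 4.36 CPM in other control cells. With the pseudocount of 5 CPM, Myc passed the fold in control 1 and not in control 2. Sox9, a transcription factor of the crypt base, had 45.5 and 132 CPM in gated cells, against 23.5 and 33.8 CPM in other control cells and passed the fold in control 2 alone. Of 6 Notch genes, 2 were higher and none lower. Hes1, the effector that represses Atoh1, had 97.1 and 89.9 CPM in gated cells, against 13.3 and 29.4 CPM in other control cells. Notch1, the receptor, had 21.3 and 32.1 CPM in gated cells, against 7.06 and 9.81 CPM in other control cells. With scaled totals 1 of these 6 was higher and 1 lower.

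Genes of secretory progenitors had no common direction, and summed to 355 and 353 CPM in gated cells, against 309 and 333 CPM in other control cells. Atoh1, which commits cells to the secretory fate, and Neurog3, which commits them to the endocrine fate, had no count in any gated cell. The ligand gene Dll1 had 1 and 1 counts. Sox4, a transcription factor expressed in progenitors, was the only 1 of 4 tested genes past the fold and had 124 and 86.7 CPM in gated cells, against 22.0 and 18.5 CPM in other control cells. Xbp1, which drives the secretory apparatus, had 149 and 141 CPM in gated cells, against 148 and 133 CPM in other control cells. The median log2 ratio of these 4 genes was 0.08 with plain totals and -0.22 with scaled totals, so its direction depended on the scaling.

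Some absorptive progenitor genes were higher and others within 2-fold. Dmbt1, a secreted scavenger receptor protein, was the most abundant gene among the 15 largest ratios and had 6985 and 8211 CPM in gated cells, against 1223 and 1489.7 CPM in other control cells. Oat, the ornithine aminotransferase, had 595 and 619.5 CPM in gated cells, against 159 and 149 CPM in other control cells. Fgfbp1, a carrier of fibroblast growth factors, had 54.6 and 25.7 CPM in gated cells, against 1.57 and 1.09 CPM in other control cells. In all, 4 of 14 tested genes of this list were at least 2-fold higher and none lower; with scaled totals 3 were higher and 2 lower. The lectin gene Reg1 lay the other way, with 5422 and 5184 CPM in gated cells, against 9572 and 11288 CPM in other control cells, and Ccl25, a chemokine for gut lymphocytes, had 586 and 671 CPM in gated cells, against 505 and 515 CPM in other control cells. The transcription factor gene Hnf4a had 409.8 and 369 CPM in gated cells, against 315 and 262 CPM in other control cells.

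Other genes of the urea cycle and of ketone synthesis were mostly within 2-fold. Beside Cps1, whose level the gate sets, 10 genes of this list were tested, 2 were at least 2-fold higher and none lower, with a median log2 ratio of 0.42. Oat, described above, was among the higher genes. Otc, which follows Cps1 in the cycle, had 249 and 247 CPM in gated cells, against 181 and 191 CPM in other control cells. Arg2, the mitochondrial arginase, had 504 and 523 CPM in gated cells, against 673 and 725 CPM in other control cells. Otc and Arg2 differed by less than 2-fold, Otc being higher and Arg2 lower in gated cells.

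Mature enterocyte genes outside the gate were lower but still abundant. Of 29 tested, 15 were at least 2-fold lower and none higher, with a median log2 ratio of -1.23 (23 lower with scaled totals). Summed, they held 15064 and 16949 CPM in gated cells, against 44509.8 and 43573 CPM in other control cells. Fabp2, an intestinal fatty acid carrier, had 1372 and 1441 CPM in gated cells, against 4710.5 and 4599.9 CPM in other control cells. Alpi, the intestinal alkaline phosphatase of the brush border, had 1995 and 1984 CPM in gated cells, against 5014 and 4328 CPM in other control cells. Fabp1, another fatty acid carrier, differed less, with 1345 and 2051 CPM in gated cells, against 2315 and 3328 CPM in other control cells. Against the cells that failed the crypt criterion alone, 10 of the 29 were at least 2-fold lower and none higher.

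Goblet and Paneth genes gave the lowest ratios of all. Zg16, a goblet secretory protein, had 131 and 138 CPM in gated cells, against 12339 and 25180.4 CPM in other control cells, and Tff3, a trefoil peptide of mucus, had 18.2 and 12.8 CPM in gated cells, against 2273 and 5036 CPM in other control cells. Itln1, an intelectin of secretory cells, had no count in gated cells, against 263 and 424 CPM in other control cells. All 17 tested Paneth genes were at least 2-fold lower, among them the defensin Defa24 with 48.6 and 28.9 CPM in gated cells, against 1948 and 2770.0 CPM in other control cells. Paneth genes could reach the level filter through other control cells alone, where the list summed to 7017 and 12254 CPM. The count of lower genes therefore follows in part from the filter. Transcripts of the phospholipase gene Pla2g2a, annotated as a polymorphic pseudogene, had 6.07 and 9.63 CPM in gated cells, against 465 and 387 CPM in other control cells. Defensin genes have near-identical copies, so the level of each is uncertain. The goblet limit removed these cells: Paneth genes summed to 65321 and 87259.9 CPM in the 59 and 42 cells over that limit, against 264 and 109 CPM in gated cells and 51.6 and 48.2 CPM in cells that failed the crypt criterion alone. Against that last class 3 of 17 Paneth genes were higher in gated cells and none lower. Of 12 goblet genes outside the gate, 10 were lower against all other control cells, and 1 was higher and none lower against that class.

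Endocrine genes were low in gated cells, with 6 of 7 tested genes at least 2-fold lower, and the gate used no endocrine gene. They summed to 39.5 and 141 CPM in gated cells, against 5074 and 10161 CPM in cells that failed the crypt criterion alone, the class with the highest level. Somatostatin gene Sst had 0 and 3.21 CPM in gated cells, against 69.8 and 1359.9 CPM in other control cells, and the hormone gene Gip had 3.04 and 103 CPM in gated cells, against 862 and 418 CPM in other control cells. Tuft cell genes summed to 343 and 305 CPM in gated cells, against 235 and 592 CPM in other control cells. Of 9 tested tuft genes 1 (Fyb) was at least 2-fold higher and none lower, and with scaled totals none was higher and 1 lower. Against the cells that failed the crypt criterion alone, which held 663 and 1689.8 CPM of tuft genes, 5 of the 9 were lower and none higher. Markers of another type with 3 or more counts were found in 4 and 12 gated control cells, which were tuft (3 and 9), Paneth (1 and 3), leukocyte (2 and 0) and endocrine (0 and 1) markers. The stromal and erythroid marker lists reached 3 counts in no gated control cell. Without those cells 603 genes were higher and 409 lower.

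MHC class II genes were lower in gated cells than in all other control cells and differed between the libraries. Of 5 tested, 3 were at least 2-fold lower, with a median log2 ratio of -2.35. Against the cells that failed the crypt criterion alone none of the 5 passed the fold, with a median of -0.52. The invariant chain gene Cd74 had 124 and 0 CPM in gated cells, against 310.0 and 169 CPM in other control cells, and H2-Aa had 66.8 and 32.1 CPM in gated cells, against 357 and 186 CPM in other control cells. Among genes with at least 100 CPM in gated cells of either library, Cd74 gave the largest gap between control 2 and control 1. Other genes over 2-fold apart between them were the metallothionein Mt1 with 1278 and 408 CPM and the antimicrobial lectin Reg3b with 213 and 924 CPM. In all, 676 of 6891 genes (9.81%) were over 2-fold apart between the libraries.

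Regenerative genes summed to 1691 and 1599 CPM in gated cells, against 2011 and 2208 CPM in other control cells. Targets of YAP and TAZ, which the Lats kinases restrain, summed to 185 and 125 CPM in gated cells, against 304 and 269 CPM in other control cells. Ly6e, a member of the Ly6 family, did not pass the fold, with 440.2 and 401 CPM in gated cells, against 179.7 and 248 CPM in other control cells. Clu, a marker of revival stem cells, had 0 and 4 counts in all of them, Ly6a had 1 and 0 and Ctgf had 1 and 0. S100a6, a calcium-binding protein gene, was at least 2-fold lower, with 39.5 and 32.1 CPM in gated cells, against 274 and 529 CPM in other control cells, but had 95.8 and 8.76 CPM in cells that failed the crypt criterion alone. Lists of 7 tested regenerative genes and 5 tested YAP and TAZ targets held 1 higher gene (Cd44) and 2 lower ones (S100a6 and Nt5e) in all, and no lower one against the cells that failed the crypt criterion alone. None of 9 tested Hippo pathway components passed the fold in either direction. Of 10 immediate early and heat shock genes, Hsp90aa1 was higher and Fos, Jun, Junb, Zfp36 and Btg2 were lower, with a median log2 ratio of -1.05. Against the cells that failed the crypt criterion alone none of these 10 passed the fold in either direction.

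The gated cells formed a gradient with the number of crypt counts. Exactly 2 crypt counts were held by 35 and 29 gated cells, 3 to 4 by 39 and 27 and 5 or more by 70 and 59. Just outside the threshold, 63 and 38 control cells below the other limits held 1 crypt count. S-phase genes summed to 531 and 576 CPM at 1 count, 746 and 772 CPM at 2, 903 and 834 CPM at 3 to 4 and 1895 and 2047 CPM at 5 or more. Enterocyte genes ran the other way, with 29644 and 34118 CPM at 1 count, 27376 and 29455 CPM at 2 and 8378 and 9059 CPM at 5 or more. Crypt base genes outside the gate had 605 and 564 CPM at 1 count, 358 and 482 CPM at 2 and 1807 and 1796 CPM at 5 or more, so that cells just inside the threshold were no higher than those just outside it. Depth moved along with the crypt count, with median counts per cell of 1518 and 2298 at 1 count and 2318 and 2895 at 5 or more, and its part in the gradient was not tested.

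**Figure D3:**
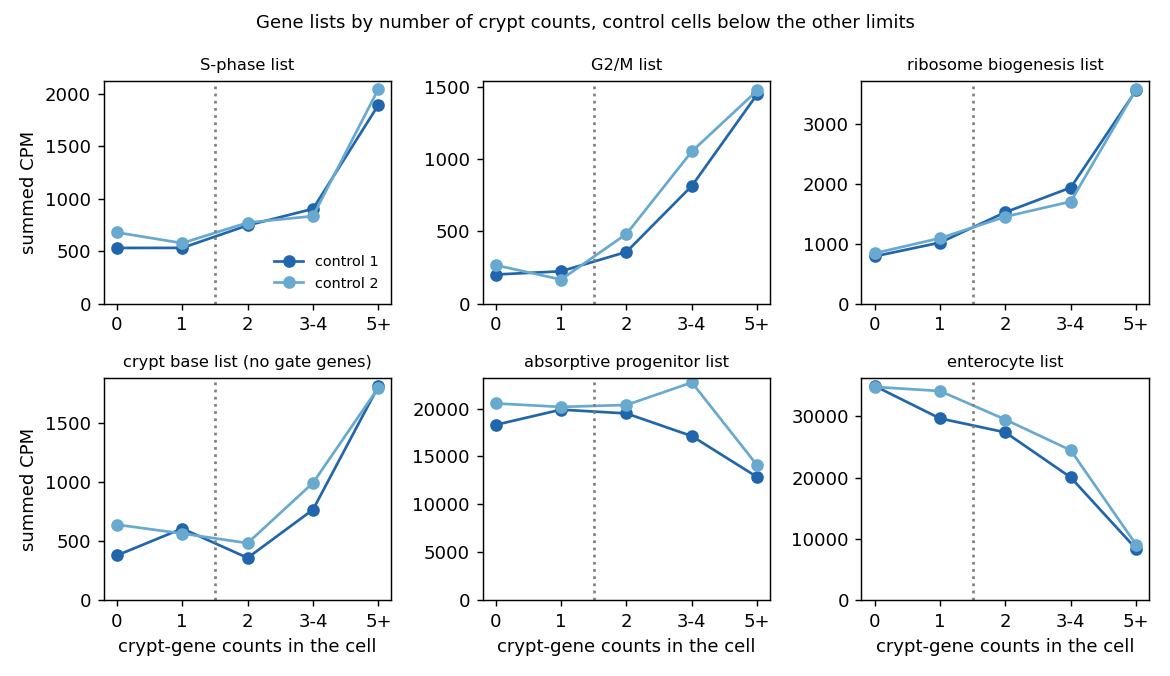
Summed CPM of 6 gene lists in control cells below the villus and goblet limits, by the crypt-gene counts of the cell (1 line per library, no error bars); gated cells lie right of the dotted line. From 1 count upward S-phase, G2/M and ribosome biogenesis genes climb with the crypt count and enterocyte genes decline, and crypt base genes stand out at 5 or more counts.

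Cells with a crypt gene other than Cps1 differed from cells with Cps1 alone. The cells with another crypt gene, 64 and 47 in number, had 2175 and 2898 CPM of S-phase genes, against 835 and 589 CPM in the 80 and 68 cells with Cps1 alone. G2/M genes summed to 1654 and 2289 CPM in cells with another crypt gene, against 625 and 419 CPM in cells with Cps1 alone. Crypt base genes outside the gate summed to 2252 and 2525 CPM in cells with another crypt gene, against 491 and 542 CPM in cells with Cps1 alone, and enterocyte genes to 8973 and 7143 CPM in cells with another crypt gene, against 19788 and 23363 CPM in cells with Cps1 alone. In both libraries, cells with another crypt gene were higher in cycling and crypt base genes and lower in enterocyte genes. In crypt base genes, cells with Cps1 alone were no higher than other control cells, which held 526 and 554 CPM. Other control cells held 553 and 640.1 CPM of S-phase genes, so that cells with Cps1 alone were higher in control 1 only. G2/M genes, at 272 and 255 CPM in other control cells, were higher in cells with Cps1 alone. Enterocyte genes, at 44509.8 and 43573 CPM in other control cells, were lower. Clca3b had 702 and 406 CPM in cells with another crypt gene, against 75.5 and 26.5 CPM in cells with Cps1 alone. Dmbt1 did not separate them in this way, with 6241 and 7184 CPM in cells with another crypt gene, against 7563 and 8883 CPM in cells with Cps1 alone. In cells with another crypt gene, 583 of 7091 genes were at least 2-fold higher (8.22%) and 344 at least 2-fold lower (4.85%) than in cells with Cps1 alone.

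**Figure D4:**
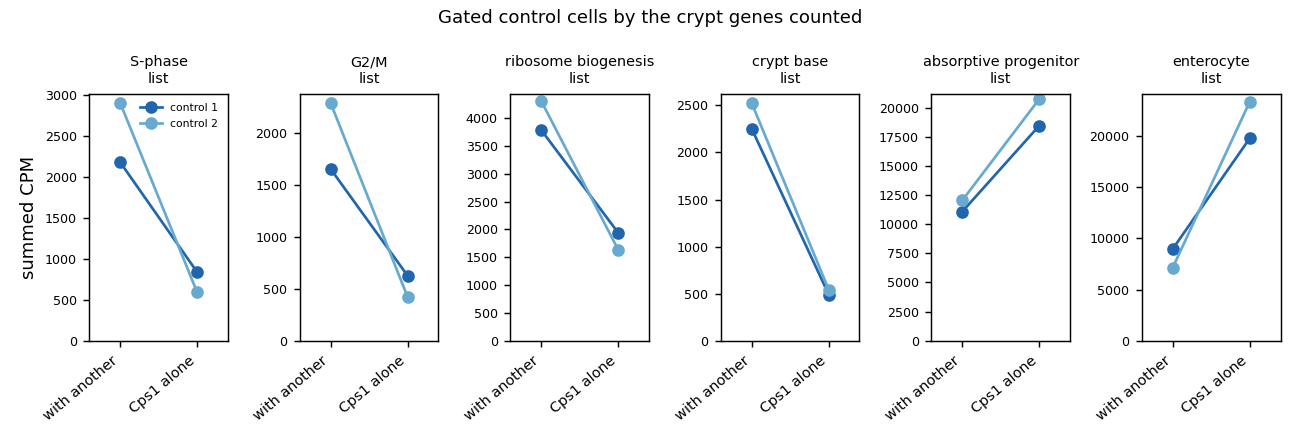
Summed CPM of 6 gene lists in gated control cells with a crypt gene other than Cps1 (left of each panel) and with Cps1 alone (right), with 1 line per control library and no error bars. S-phase, G2/M, ribosome biogenesis and crypt base lists lie higher, and absorptive progenitor and enterocyte lists lower, in cells with another crypt gene in both libraries.

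The 14 and 6 gated cells with an Lgr5 count were few, and their values rest on few counts. Gkn3 reached 769 and 447 CPM in them, against 60.6 and 37.2 CPM in gated cells without an Lgr5 count. Dmbt1 went the other way, with 2492 and 2685 CPM in cells with Lgr5, against 7477 and 8504 CPM in cells without it. S-phase genes had 1292 and 3579.6 CPM in cells with Lgr5, against 1435 and 1392 CPM in cells without it, so that the libraries did not share a direction.

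The same gate took 208 of 726 Lats-deleted cells (28.7%) and 228 of 1289 (17.7%), against 18.6% and 22.3% in the control libraries. The difference of the means was 2.70 percentage points (exact permutation test, two-sided, p = 1.0; 2 libraries against 2 cannot go below 0.333). Lats-deleted gated cells were deeper, with medians of 5017 and 6268 counts, against 1977 and 2536 in control gated cells. With each cell thinned to 1000 counts the shares were 7.71 and 2.95% in Lats-deleted and 15.6 and 15.1% in control libraries (exact p = 0.333). The difference changed sign with thinning.

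Lats-deleted gated cells carried other crypt genes than control gated cells. Cps1 had a count in 6.73 and 6.14% of Lats-deleted gated cells, against 96.5 and 100.0% of control gated cells. Slc12a2 was counted in 63.9 and 92.5% of Lats-deleted gated cells, against 29.2 and 31.3% of control gated cells. Markers of other types with 3 or more counts were found in 140 and 111 Lats-deleted gated cells, against 4 and 12 control ones. Stromal markers reached 3 counts in 61 and 18 Lats-deleted gated cells, Paneth markers in 84 and 66. Of the 19 Paneth markers, 12 and 9 were at 0 in Lats-deleted gated cells, against 4 and 12 in control ones. Of 4 Paneth genes tested between the genotypes, 1 was called higher and 3 lower. Summed over the list, Paneth markers had 1046 and 381 CPM in Lats-deleted gated cells, against 264 and 109 CPM in control gated cells. The sum and the single genes therefore did not share a direction. Stromal genes summed to 3094 and 537 CPM in Lats-deleted gated cells, against 54.6 and 41.7 CPM in control gated cells, with all 12 stromal markers detected in both Lats-deleted libraries and 4 and 5 of them at 0 in the control ones. The comparison is thus between cells that the same rule took through different genes, and the part of markers of other types in the differences was not tested beyond the values without those cells.

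Lats1 had 7.59 and 9.12 CPM in Lats-deleted gated cells, against 20.1 and 27.6 CPM in control gated cells (log2 difference -1.49 ± 0.533 SE, adjusted p = 0.0717, edgeR quasi-likelihood test with Benjamini-Hochberg adjustment), on a CPM scaled by the trimmed mean of M values as in the rest of this comparison. Lats2, resting on 2 counts in the controls, had 26.6 and 22.8 CPM in Lats-deleted gated cells, against 3.35 and 3.45 CPM in control gated cells (log2 difference 2.81 ± 0.720 SE, adjusted p = 0.0190), a call lost when either control library was left out, with cells of at least 2000 counts only and in DESeq2. Tags near the 3′ end of a transcript that lie outside the deleted exons do not check the deletion, and the exons deleted are not given in the sources used here. Outside the gate genes, 2105 of 9158 genes were called at an adjusted p under 0.05 (23.0%), 1031 higher and 1074 lower.

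Cell-cycle genes did not separate the genotypes in the test. None of 27 S-phase and none of 25 G2/M genes was called by edgeR, with 2 and 0 genes at an unadjusted p under 0.05, and DESeq2 called none either. S-phase genes summed to 950.0 and 2002 CPM in Lats-deleted gated cells, against 1421 and 1502 CPM in control ones, on plain totals, so that the Lats-deleted libraries lay on both sides. Leaving out Lats-deleted 1, 4 S-phase and 10 G2/M genes were called higher, and leaving out Lats-deleted 2, 6 and 3 were called lower. Top2a had 57.7 and 169 CPM in Lats-deleted gated cells, against 131 and 138 CPM in control gated cells (log2 difference -0.24 ± 0.459 SE, adjusted p = 0.764, edgeR).

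Enterocyte, absorptive progenitor and urea cycle genes were lower in Lats-deleted gated cells. Of 29 enterocyte genes, 27 fell and none rose, with a median log2 difference of -4.23 against 0.06 over all genes tested. Fabp2 had 56.2 and 39.7 CPM in Lats-deleted gated cells, against 1513 and 1550.4 CPM in control gated cells (log2 difference -5.00 ± 0.301 SE, adjusted p = 1.77e-05, edgeR). Of 14 absorptive progenitor genes, 9 fell and none rose; Dmbt1 had 264 and 656 CPM in Lats-deleted gated cells, against 7699.8 and 8833 CPM in control gated cells (log2 difference -4.16 ± 0.414 SE, adjusted p = 1.13e-04, edgeR). Of 11 urea cycle and ketone genes, 9 fell and none rose, among them Otc with 7.59 and 6.51 CPM in Lats-deleted gated cells, against 274 and 266 CPM in control gated cells (log2 difference -5.24 ± 0.345 SE, adjusted p = 1.94e-05, edgeR). Of the 8 decreases picked by size, Ces1f encodes a carboxylesterase and Slc5a1 the glucose transporter of the brush border. Slc5a1 had 12.9 and 5.21 CPM in Lats-deleted gated cells, against 532 and 428 CPM in control gated cells (log2 difference -5.73 ± 0.418 SE, adjusted p = 2.62e-05, edgeR).

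Regenerative genes and YAP and TAZ targets were higher in Lats-deleted gated cells. All 21 tested regenerative genes and 14 of 16 targets rose, with median log2 differences of 7.04 and 6.01. The filter of this test admits a gene through the counts of a single group. Members with hardly any control count could therefore only be called higher, so these counts follow in part from the filter. In gated or other control cells, 7 genes of the regenerative list and 5 of the target list reached 20 CPM. Clu had 4966 and 4248 CPM in Lats-deleted gated cells, against 0 and 13.8 CPM in control gated cells (log2 difference 9.37 ± 0.570 SE, adjusted p = 1.77e-05, edgeR). S100a6 had 13332 and 10129 CPM in Lats-deleted gated cells, against 43.5 and 34.5 CPM in control gated cells (log2 difference 8.23 ± 0.349 SE, adjusted p = 5.3e-06, edgeR). The connective tissue growth factor gene Ctgf, a YAP target, had 889 and 539 CPM in Lats-deleted gated cells, against 3.35 and 0 CPM in control gated cells, with 1 count in the control cells and a ratio of 412 (exact 95% counting interval 73.9 to 16289). Msln, which encodes mesothelin, had 2333 and 935 CPM in Lats-deleted gated cells and no count in control gated cells, at least 309.9-fold higher against a floor of 3 counts over the control group. Dcn, a proteoglycan gene of fibroblasts, was also among the 8 largest increases and had 1553 and 97.7 CPM and no control count. Without gated cells that carried markers of other types, where 5917 genes were tested, 21 regenerative genes and 9 YAP and TAZ targets were called higher. No stromal gene was called then, but stromal counts were among those that chose the cells left out.

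Crypt genes gave both directions. Of 20 crypt base genes outside the gate, 4 rose and 3 fell, where 11.3% of all genes outside the gate rose and 11.7% fell. Counts this small cannot be told from those shares. Cd44 had 401 and 352 CPM in Lats-deleted gated cells, against 104 and 107 CPM in control gated cells (log2 difference 1.83 ± 0.275 SE, adjusted p = 0.00114, edgeR), a call lost without either control library. Aqp4, a water channel of the crypt base, had 0.759 and 2.60 CPM in Lats-deleted gated cells, against 26.8 and 65.6 CPM in control gated cells (log2 difference -4.61 ± 0.710 SE, adjusted p = 0.00130, edgeR). The Wnt target Ccnd1 had 1166 and 969.7 CPM in Lats-deleted gated cells, against 127 and 173 CPM in control gated cells (log2 difference 2.83 ± 0.284 SE, adjusted p = 1.21e-04, edgeR), and 3 of 10 Wnt targets rose and none fell. Among the gate genes, whose level the gate sets in part, Lgr5 had 8.35 and 12.4 CPM in Lats-deleted gated cells, against 70.3 and 51.8 CPM in control gated cells and Cps1 had 41.8 and 24.7 CPM in Lats-deleted gated cells, against 2048 and 1847 CPM in control gated cells. Of 82 ribosomal protein genes, 30 fell and none rose. Of 25 ribosome biogenesis genes, 2 rose, which is no more than the share over all genes, and none fell. Mitochondrially encoded genes fell in 12 of 13 cases, and the median mitochondrial share per cell was 3.02 and 3.84% in Lats-deleted gated cells, against 7.62 and 6.20% in control gated cells.

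**Figure D5:**
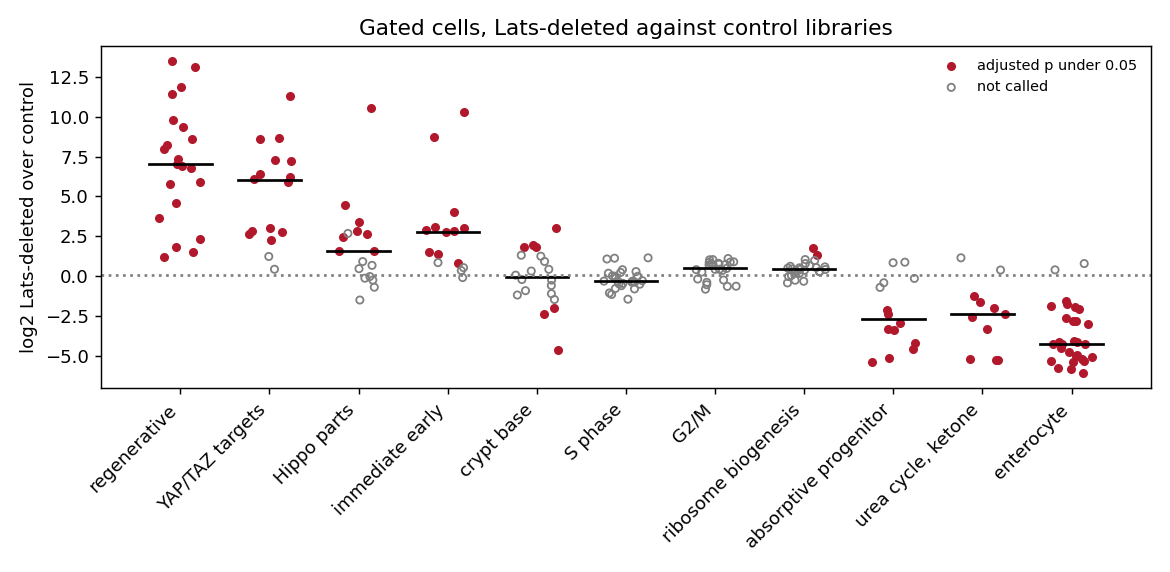
Log2 difference, Lats-deleted over control, in gated cells for the genes of 11 lists (1 point per gene; filled, adjusted p under 0.05 in edgeR; open, not called; bars, list medians; dotted line, median of all genes tested). Regenerative and YAP and TAZ genes lie above the line, enterocyte, absorptive progenitor and urea cycle genes below it, and S-phase and G2/M genes around it with none called.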

How the data were processed

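Counts per gene and cell barcode were deposited by the authors as 1 table per library, per the file headers, with 25289 gene columns shared by all 4 tables; every value was whole and they were used as raw counts. Per the submitters' processing notes, Bowtie 1.1.1.1, SAMtools 1.3.1 and RSEM 1.3.0 were used with the mm10 build; the annotation and the handling of molecular identifiers are not given in the sources used here. Of the gene columns, 24560 matched a GENCODE M21 symbol (97.1%).

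Counts were summed per library over gated and other kept cells. Gated and other control cells were compared as CPM of plain totals with a pseudocount of 5 CPM, and a gene was past the fold when it differed at least 2-fold the same way in both libraries. Lats-deleted and control sums were compared with edgeR 4.0.16 (filterByExpr, TMM, glmQLFit and glmQLFTest, Benjamini-Hochberg over 9170 genes); DESeq2 1.42.0 was an alternative. On simulated sums with 200 genes changed 4-fold, this comparison recovered 156 (78%) and called 6 of the unchanged genes. The simulation gave every gene the same dispersion and changed few of the 9170 genes. Its rates therefore check the code and do not give error rates for the deposited libraries. Named genes were the gate genes, Lats1, Lats2 and Lrig1, the 15 highest and 10 lowest ratios, up to 4 of the most abundant members of each list, and in the Lats comparison the 8 largest calls each way and up to 3 members per list with the smallest p; further list members were chosen after their values were seen. No clustering was run and no doublet caller. Same-numbered libraries did not deviate together (correlation 0.00649), so the replicate numbers were not used as pairs. Some genes that the rule names are not reported here. The members and lists were chosen with earlier results of these data known. Python 3.11.15 with numpy 2.4.6, scipy 1.17.1 and pandas 2.3.3 and R 4.3.3 were used.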

Additional observations from a re-analysis of the deposited data

How the results depend on the processing

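The share of gated cells (Lats-deleted minus control) was 2.70 percentage points and reversed to -2.46 with 3 or more crypt counts, -10.1 with the gate on cells thinned to 1000 counts and -8.56 without cells carrying markers of other types; leaving out 1 library gave -2.78 (without Lats-deleted 1) to 8.18. The mean control share of 20.5% moved to 15.4%, 15.4%, 26.2% (cells of at least 2000 counts) and 23.7% (mitochondrial share at most 15%). With scaled totals 363 genes were higher and 661 lower in gated cells, and against cells that failed the crypt criterion alone 390 and 185 (5.68% and 2.69% of 6870); 1 library alone gave 1108 to 1143 higher and 713 to 723 lower genes, since the fold then had to hold in 1 library only. Among genes past the fold that the naming rule took, the mean log2 ratio against those cells reversed or reached 0 for Itln1 0, Defa24 1.98, Defa23 0.38, Defa-rs7 0.38, Defa17 0.89, Defa3 0.89, Ccl6 0.70, Lyz1 1.68, Agr2 1.58, Lyz2 1.14, and among printed genes within 2-fold Xbp1 and Ccl25 changed sign. In the Lats comparison the thinned gate called 442 higher and 477 lower genes, thinned counts 505 and 501, no filter 1709 higher, and DESeq2 680 lower; leaving out 1 library gave 508 to 1434 higher and 544 to 1185 lower, with the lowest counts without a control library. The cause was not tested. H2-Aa reversed to 0.17 with the thinned gate. The replicate block called 1293 higher and 1254 lower genes. The other settings kept these counts within 1.5 times. Gated control cells summed to 329402 and 311520 counts, at which 17 of 32 crypt base genes reached the level filter.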
